A study of Mus musculus with 6 samples.

Results

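The 10 genes described here make, sense or oppose nitric oxide in the vessel wall, and they were taken by symbol from the 22298 genes of the deposited table. They are Nos3 and Nostrin for nitric oxide synthesis, Gucy1a1 and Gucy1b1 for its receptor, Prkg1 and Pde5a for the cGMP signal, and Edn1, Ece1, Ednra and Ednrb for endothelin. All 10 were found, once each. They were measured by poly(A)-selected RNA sequencing of liver sinusoidal endothelial cells (LSECs), the fenestrated cells that line the liver capillaries, from wild-type mice, with no treatment given in the labels. The series holds 6 libraries, 3 titled ct with the group label control (replicates 1, 2 and 3) and 3 titled aging (replicates 2, 3 and 5). The study set mice of 24 months against mice of 8 weeks, but the age field gives 24 months for the control libraries and 8 weeks for the aging libraries. Which group was the older is therefore unsettled, and higher and lower below mean the aging libraries set against the control libraries. The labels do not say how the cells were purified, nor do they tie libraries to individual mice, so the p-values cover library-to-library spread, which may be technical.

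In endothelium, the synthase encoded by Nos3 makes nitric oxide from arginine, and the gas crosses to neighbouring contractile cells or acts in the endothelial cell itself. There it binds soluble guanylate cyclase, a dimer of an alpha and a beta subunit, which makes cGMP. cGMP activates the protein kinase encoded by Prkg1 and relaxes the vessel, and phosphodiesterase 5 breaks it down. Endothelin-1 is the opposing signal, a constrictor peptide cut from its precursor by the converting enzyme Ece1 and read by receptors A and B. In the liver, stellate cells wrap the sinusoid and contract to endothelin, and nitric oxide from LSECs is known to keep them quiescent.

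Total counts were 15999220 to 17871220 per library. The 16 LSEC marker genes summed to 32659 to 39792 CPM (counts scaled to library size) and the 13 pan-endothelial genes to 21779 to 26119 CPM, and no gene of either list passed the test between the groups. Without overlap of the groups, 2 LSEC genes were higher and 3 lower in the aging libraries, and 1 pan-endothelial gene was lower. Among all tested genes, 19.2% were higher and 18.8% lower without overlap. Lyve1, one of the 3 lower LSEC genes, stood at 551, 629 and 662 CPM in the control libraries. It stood at 244, 67.7 and 462 CPM in aging replicates 2, 3 and 5 (edgeR adjusted p = 0.207). No marker gene of any list was at 0 in all libraries. Over the transcriptome, 1678 of 13096 tested genes (12.8%) passed a Benjamini-Hochberg adjusted p of 0.05 in edgeR's quasi-likelihood test. Of those calls, 56.4% were higher in the aging libraries, or 45.9% with upper-quartile scaling. The number fell to 664, 268, 458 and 860 without control replicate 1, 2 or 3 or aging replicate 3. The 9 neutrophil markers summed to 1590 to 4489 CPM in the aging libraries and 229 to 511 CPM in the control libraries.

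Of the 10 genes, 9 had enough counts to be tested. Gucy1b1 and Prkg1 fell, none rose and 7 did not pass. Over all tested genes, 5.59% were called lower and 7.22% higher. The median log2 fold change of the 9 genes was -0.33, against -0.01 over all tested genes. The control and aging libraries did not overlap for 3 of the 9, Gucy1b1, Prkg1 and Edn1, each lower in the aging libraries. Among all tested genes 18.8% separated in that direction and 19.2% in the other. The statistics in the authors' deposited table do not rest on the same libraries. Its group means equal the mean of the 3 libraries for 1.65% of genes in the control and 1.3% in the aging group (within 0.01, FPKM of at least 1), whereas 5 times each mean is a whole number of hundredths for 100% of them, as for a mean of 5 libraries. There, by the authors' deposited table, 4 of the 10 genes had an FDR under 0.05, Nos3 (log2 fold change -0.72), Gucy1b1 (-2.65), Prkg1 (-0.55) and Edn1 (-1.16), where 6.15% of all genes were lower at that FDR. These values are not comparable with the test of 3 against 3 libraries, and the further libraries are not analysed here.

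**Figure D1:**
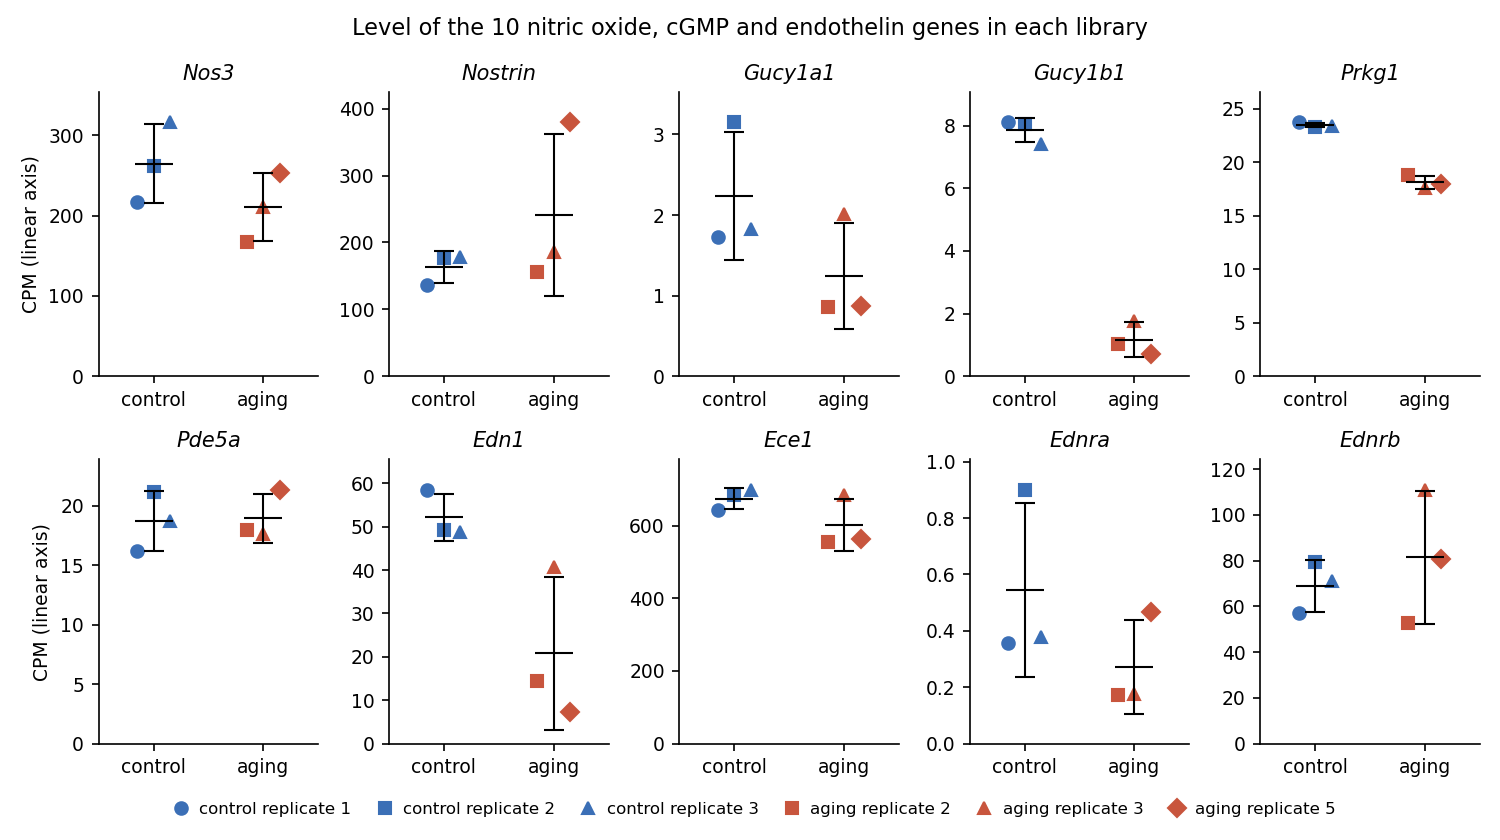
CPM of each of the 10 genes in every library (linear axes from 0), with black bars for the mean and SD of 3 libraries. Gucy1b1 and Prkg1 separate cleanly, Edn1 is low in aging replicates 2 and 5 but not in 3, and Nostrin is high in aging replicate 5 alone.

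The genes spanned a wide range of levels. On the length-scaled FPKM of the authors, the mean over the control libraries was 165 ± 18.1 for Ece1 (SD, n = 3), 91.5 ± 10.9 for Nostrin and 64.8 ± 10.6 for Nos3. Edn1 followed at 24.8 ± 3.38 and Ednrb at 18 ± 2.72. Prkg1 (3.74 ± 0.467), Pde5a (2.65 ± 0.278) and Gucy1b1 (2.47 ± 0.176) lay far lower, with Gucy1a1 at 0.497 ± 0.167 and Ednra at 0.15 ± 0.0866. In the control libraries the only neighbours in this order whose ranges overlapped were Pde5a and Gucy1b1. So the transcripts that make nitric oxide and process endothelin were abundant, whereas those of the nitric oxide receptor and of endothelin receptor A were scarce. In the aging libraries the order was the same but for Ednrb (20.9 ± 7.60) standing above Edn1 (9.69 ± 8.27), with overlapping ranges. There the ranges of Ece1 and Nostrin, of Prkg1 and Pde5a, and of Gucy1b1 and Gucy1a1 overlapped as well.

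Nos3 (ENSMUSG00000028978), the endothelial nitric oxide synthase, stood at 217, 261 and 316 CPM in control replicates 1, 2 and 3. In aging replicates 2, 3 and 5 it stood at 168, 211 and 253 CPM. The groups overlap, and the spread within each is as wide as the distance between their means. The log2 fold change was -0.33 ± 0.19 (SE; 95% interval -0.77 to 0.10), which did not pass (edgeR adjusted p = 0.266), and ranged from -0.49 to -0.19 with 1 library left out. The summed pan-endothelial markers were also lowest in control replicate 1 and aging replicate 2, and Nos3 as a share of that sum was 0.974%, 1.00% and 1.22% in the control and 0.770%, 0.905% and 1.09% in the aging libraries. Those shares overlap too.

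Nostrin (ENSMUSG00000034738) encodes an adaptor that binds the synthase and moves it from the plasma membrane into vesicles, lowering its activity. It stood at 136, 177 and 178 CPM in the control libraries and at 156, 186 and 380 CPM in aging replicates 2, 3 and 5. Only aging replicate 5 lay outside the range of the others by a wide margin. The log2 fold change was 0.55 ± 0.34 (SE; 95% interval -0.25 to 1.36; edgeR adjusted p = 0.307), and 0.06 without aging replicate 5.

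The nitric oxide receptor gave the widest separation. Gucy1b1 (ENSMUSG00000028005), the beta-1 subunit that carries the heme to which nitric oxide binds, had 136, 143 and 118 counts in the control libraries and 18, 30 and 12 in aging replicates 2, 3 and 5. In CPM these were 8.10, 8.04 and 7.43 against 1.04, 1.77 and 0.698. The control libraries lie close together and every aging library lies far below them. Gucy1b1 fell 6.70-fold, a log2 fold change of -2.74 ± 0.31 (SE; 95% interval -3.47 to -2.02; edgeR adjusted p = 0.00506). It was lower in 3 of 3 aging libraries and kept its call whichever library was left out (log2 fold change -3.16 to -2.48; edgeR adjusted p 0.00429 to 0.0331).

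Gucy1a1 (ENSMUSG00000033910), the alpha-1 partner, was lower than Gucy1b1 to begin with. Its control values were 1.73, 3.15 and 1.83 CPM, and aging replicates 2, 3 and 5 had 0.863, 2.01 and 0.872 CPM. Aging replicate 3 sits within the control range. The log2 fold change was -0.84 ± 0.44 (SE; 95% interval -1.85 to 0.17) and did not pass (edgeR adjusted p = 0.230). It was -0.51 without control replicate 2 and -1.35 without aging replicate 3. The alternative alpha and beta subunits were nearly absent, with 0 to 5 counts of Gucy1a2 per library and 0 counts of Gucy1b2 in all 6. Gucy1a1 and Gucy1b1 are consecutive protein-coding genes of mouse chromosome 3 in the RefSeq annotation of GRCm38.p6.

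Set against each other within a library, the 2 subunits did not move in proportion. The FPKM of Gucy1b1 was 6.60, 3.61 and 5.73 times that of Gucy1a1 in control replicates 1, 2 and 3, and 1.78, 1.25 and 1.17 times in aging replicates 2, 3 and 5. The excess of the beta-1 transcript was thus larger in each control library than in each aging library. The ratio differed 3.75-fold between the groups (exact permutation test, two-sided, p = 0.1, the smallest that 3 against 3 libraries allow). Gucy1a1 rests on 15 to 56 counts per library, and Gucy1b1 on 12 to 30 in the aging libraries.

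**Figure D2:**
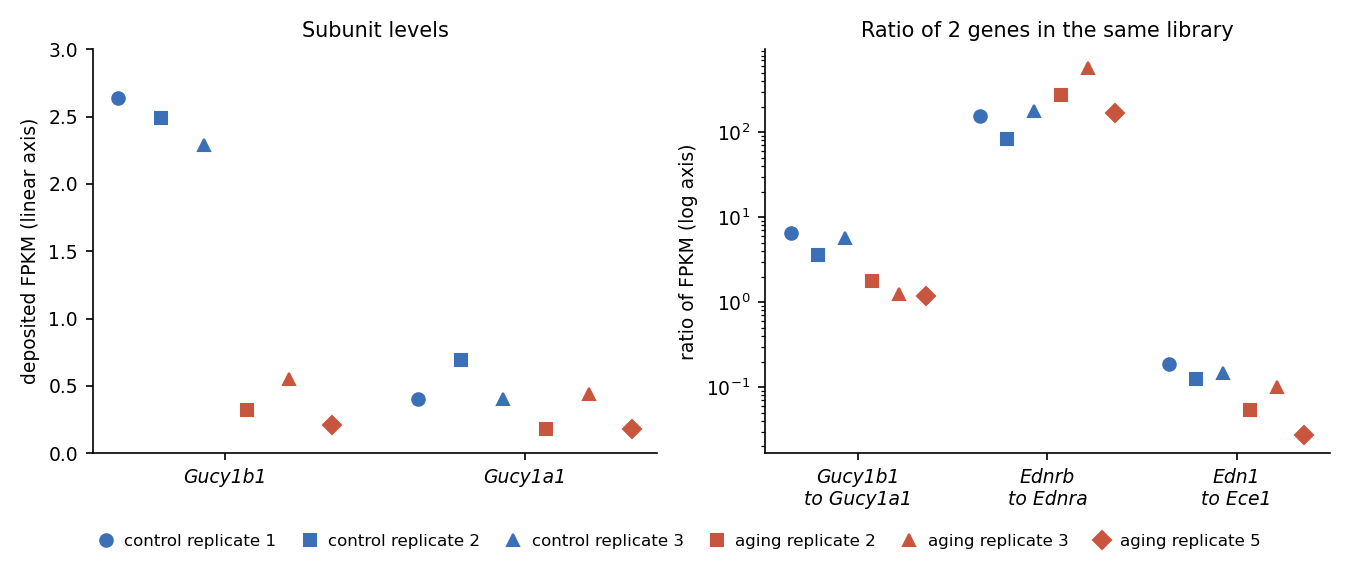
Deposited FPKM of the guanylate cyclase subunits in every library (left, linear axis), and the ratio of the FPKM of 2 genes in the same library (right, log axis). The ratio of Gucy1b1 to Gucy1a1 lies between 3.61 and 6.60 in the control libraries and between 1.17 and 1.78 in the aging libraries.

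The 250 bases before the annotated start of Gucy1b1 are shown because no other member fell as far. They lie on the minus strand at chr3:82074712-82074961 (RefSeq, GRCm38.p6), and are written 5′ to 3′ with matches to the CCAAT box (letters CCAAT on either strand, so ATTGG here) in capitals. There are 2 such matches, the first base of which lies 78 and 24 bases before the start.
Gucy1b1: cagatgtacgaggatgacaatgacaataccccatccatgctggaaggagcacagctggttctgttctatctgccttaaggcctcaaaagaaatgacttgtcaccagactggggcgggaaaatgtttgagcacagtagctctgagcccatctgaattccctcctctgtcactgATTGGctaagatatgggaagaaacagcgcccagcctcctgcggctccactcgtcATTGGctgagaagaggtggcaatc
Of 32851 RefSeq windows of this length, 33.8% hold a CCAAT match, so its presence is common. Neither the Kruppel-like factor box (letters CACCC, either strand) nor the GATA site (letters GATAA, either strand) was found in the window, whereas 52.0% and 22.6% of all windows hold one.

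Soluble guanylate cyclase is also known from hepatic stellate cells and smooth muscle, so markers of those cells stand beside this result. Of 15 tested stellate cell and fibroblast markers 4 fell, none rose and 11 did not pass. The groups did not overlap for 8, all lower in the aging libraries. Over all tested genes 5.59% were called lower and 18.8% separated in that direction. Among the markers that overlapped were Des, Cygb, Col1a1 and Col1a2, with log2 fold changes of -0.12 ± 0.39, -0.05 ± 0.41, 0.18 ± 0.61 and -0.16 ± 0.32 (SE). On the log2 scale, Reln, a glycoprotein made by stellate cells, changed by -1.80 ± 0.19 (SE), Rgs5 by -1.35 ± 0.20, Dcn by -0.79 ± 0.15 and Lrat, the retinol-esterifying enzyme of stellate cells, by -1.46 ± 0.33. The call of Lrat held only when aging replicate 5 was the library left out (otherwise edgeR adjusted p up to 0.0987), and that of Dcn needed control replicates 1 and 2 (up to 0.0677). The summed list stood at 259 to 269 CPM in the control and 183 to 225 CPM in the aging libraries, most of it from Ecm1 and Hgf. Without those genes, a choice made after the values were seen, the sum was 70.4 to 92.6 CPM against 35.3 to 43.8 CPM, a 2.03-fold fall. Gucy1b1 as a share of that smaller sum was 8.75%, 10.3% and 10.5% in the control and 2.94%, 4.05% and 1.75% in the aging libraries. The mean share was 3.38-fold lower in the aging libraries, and 5.27-fold lower against the full list. The size of this difference thus depends on which markers are summed. The 10 smooth muscle markers summed to 172 to 185 CPM in the control and 110 to 146 CPM in the aging libraries. Of the 6 tested only Smtn passed, and it was lower. Without Smtn, also a choice made after the values were seen, the sum was 22.7 to 29.9 CPM against 24.3 to 40.3 CPM. In bulk RNA, fewer cells of a type and less RNA per cell cannot be told apart. The part of stellate cells or smooth muscle in the fall of Gucy1b1 was not tested.

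**Figure D3:**
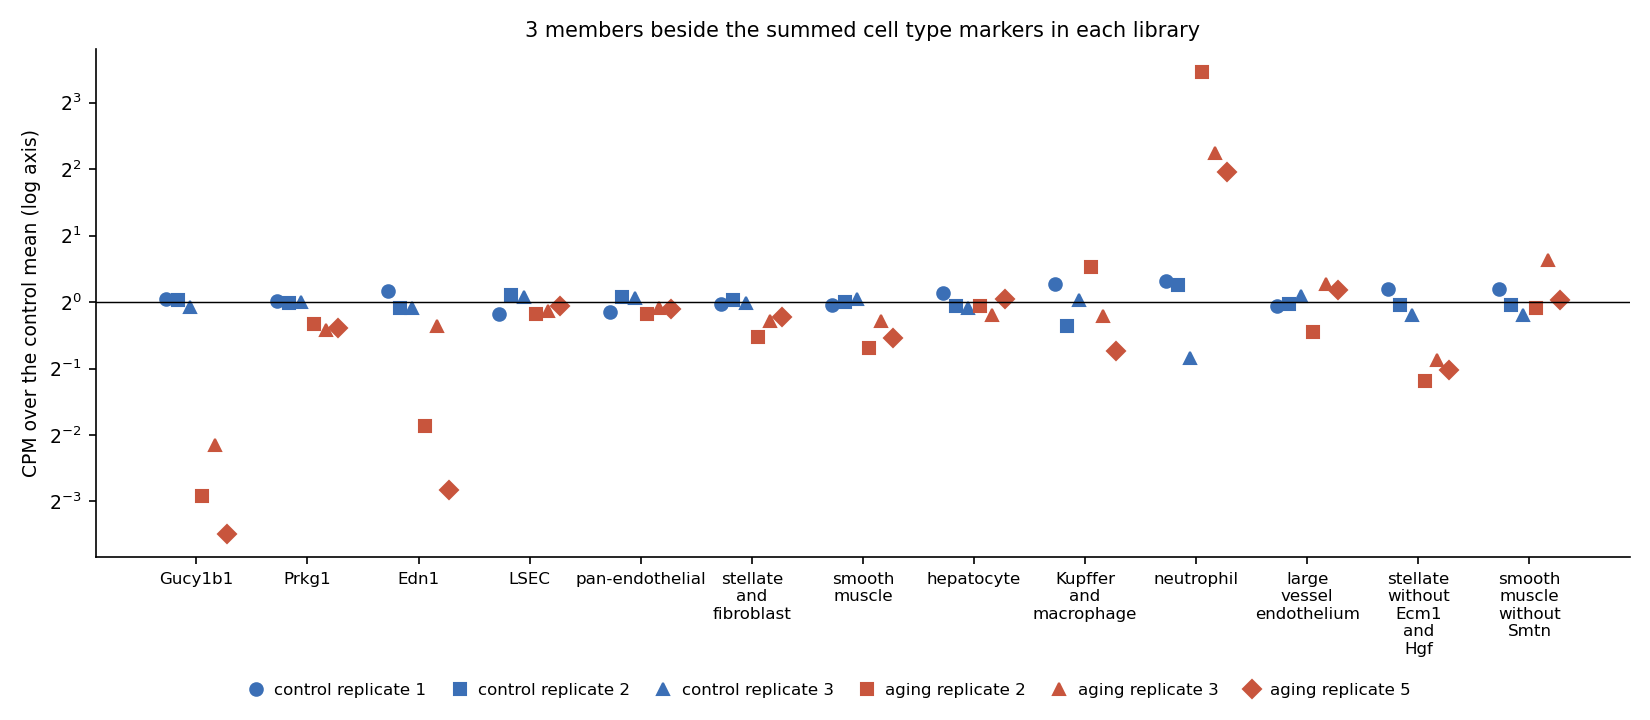
CPM of Gucy1b1, Prkg1 and Edn1 and the summed CPM of each cell type marker list, each divided by its control mean, in every library (log axis). Gucy1b1 lies below every marker sum in the aging libraries, and the stellate markers without Ecm1 and Hgf lie at about the same low level in aging replicates 2, 3 and 5.

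Downstream of cGMP, Prkg1 (ENSMUSG00000052920), the cGMP-dependent protein kinase, changed little but uniformly. It stood at 23.7, 23.3 and 23.4 CPM in the control libraries and at 18.8, 17.6 and 18 CPM in aging replicates 2, 3 and 5. Both groups are tight and they do not overlap. Prkg1 fell by 0.37 ± 0.09 on the log2 scale (SE; 95% interval of the log2 fold change -0.59 to -0.16; edgeR adjusted p = 0.0381). The call was lost when any library but aging replicate 5 was left out (edgeR adjusted p up to 0.126), with the log2 fold change between -0.40 and -0.35. Relative to the full stellate list, Prkg1 stood at a mean of 8.92% in the control and 8.81% in the aging libraries, and relative to the smaller sum, chosen after the values were seen, at 29.5% and 46.2%. The alpha and beta forms of the kinase start at separate promoters of this gene, and a count per gene does not tell them apart.

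Pde5a (ENSMUSG00000053965), the phosphodiesterase that hydrolyses cGMP and the target of sildenafil, stood at 16.2, 21.2 and 18.8 CPM in the control and at 18, 17.6 and 21.3 CPM in the aging libraries. These values interleave. The log2 fold change was 0.02 ± 0.14 (SE; 95% interval -0.30 to 0.34; edgeR adjusted p = 0.943).

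Edn1 (ENSMUSG00000021367) encodes the precursor of endothelin-1. It stood at 58.5, 49.1 and 48.8 CPM in control replicates 1, 2 and 3, and at 14.4, 40.7 and 7.39 CPM in aging replicates 2, 3 and 5. Each aging library lies below each control library, but aging replicate 3 lies close to them while aging replicate 5 is the lowest. The log2 fold change was -1.33 ± 0.55 (SE; 95% interval -2.65 to 0.00), which did not pass (edgeR adjusted p = 0.16). Leaving out 1 library gave log2 fold changes from -2.25 to -0.92 (edgeR adjusted p 0.0243 to 0.299). Edn1 passed only without aging replicate 3, where the log2 fold change was -2.25 ± 0.30 (SE; edgeR adjusted p = 0.0243).

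Markers of larger vessels varied among the same libraries. The 10 large vessel endothelium markers summed to 1229, 2020 and 1907 CPM in aging replicates 2, 3 and 5. In the control libraries they summed to 1608, 1644 and 1782 CPM. Among the aging libraries, Edn1 was highest in replicate 3 and lowest in replicate 5. Of the 10 markers, 5 were highest of the 6 libraries in aging replicate 3 (Gja5, Rspo3, Selp, Sema3g and Vwf) and 5 in another library, among them Thbd in aging replicate 5. Edn1 as a share of the marker sum was 3.64%, 2.99% and 2.74% in the control and 1.17%, 2.02% and 0.387% in the aging libraries. The part of vessel type in the Edn1 values was not tested.

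The 250 bases before the Edn1 start are shown because Edn1 is the ligand of the set, with matches to the Kruppel-like factor box (letters CACCC, either strand) marked. They lie on the plus strand at chr13:42301226-42301475 (RefSeq, GRCm38.p6), with the 2 CACCC matches (GGGTG on this strand) in capitals.
Edn1: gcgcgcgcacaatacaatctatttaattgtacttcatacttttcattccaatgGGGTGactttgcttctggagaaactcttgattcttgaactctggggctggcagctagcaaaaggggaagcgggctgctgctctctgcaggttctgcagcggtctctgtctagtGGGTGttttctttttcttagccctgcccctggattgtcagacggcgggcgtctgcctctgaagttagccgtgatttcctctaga
Such a match occurs in 8 of the 14 windows of these genes and in 52.0% of all windows of this length, and says nothing of binding. Any part of Kruppel-like factors in the Edn1 values was not tested. RefSeq promoters were at hand for 9 of the 10 genes, and Nos3 is named only.

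Ece1 (ENSMUSG00000057530), the converting enzyme, was the most abundant of the set. It stood at 642, 683 and 698 CPM in the control and at 556, 684 and 564 CPM in the aging libraries. The groups overlap through aging replicate 3 (log2 fold change -0.17 ± 0.11, SE; 95% interval -0.41 to 0.08; edgeR adjusted p = 0.327), and without it the log2 fold change was -0.26. The FPKM of Edn1 was 0.187, 0.123 and 0.145 times that of Ece1 in the control and 0.0539, 0.0996 and 0.0274 times in the aging libraries, a 2.83-fold difference without overlap (exact permutation test, two-sided, p = 0.1, the smallest possible).

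The endothelin receptors were present in very unequal amounts. Ednrb (ENSMUSG00000022122), receptor B, which on endothelium clears endothelin and triggers nitric oxide release, stood at 56.9, 79.4 and 71.0 CPM in the control and at 52.8, 111 and 80.5 CPM in the aging libraries. The groups overlap and aging replicate 3 is the highest of the 6 (log2 fold change 0.24 ± 0.27, SE; 95% interval -0.41 to 0.88; edgeR adjusted p = 0.590), and without it the log2 fold change was -0.046. Ednra (ENSMUSG00000031616), the constricting receptor A of stellate and smooth muscle cells, had 6, 16 and 6 counts in the control and 3, 3 and 8 counts in the aging libraries, too few to be tested. Summed, the 14 counts against 28 gave a ratio of 0.490 (exact binomial 95% interval 0.238 to 0.962, which covers counting error only and not the spread between libraries). The FPKM of Ednrb was 154, 83.3 and 178 times that of Ednra in the control and 274, 576 and 167 times in the aging libraries, ranges that overlap (exact permutation test, two-sided, p = 0.2).

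**Figure D4:**
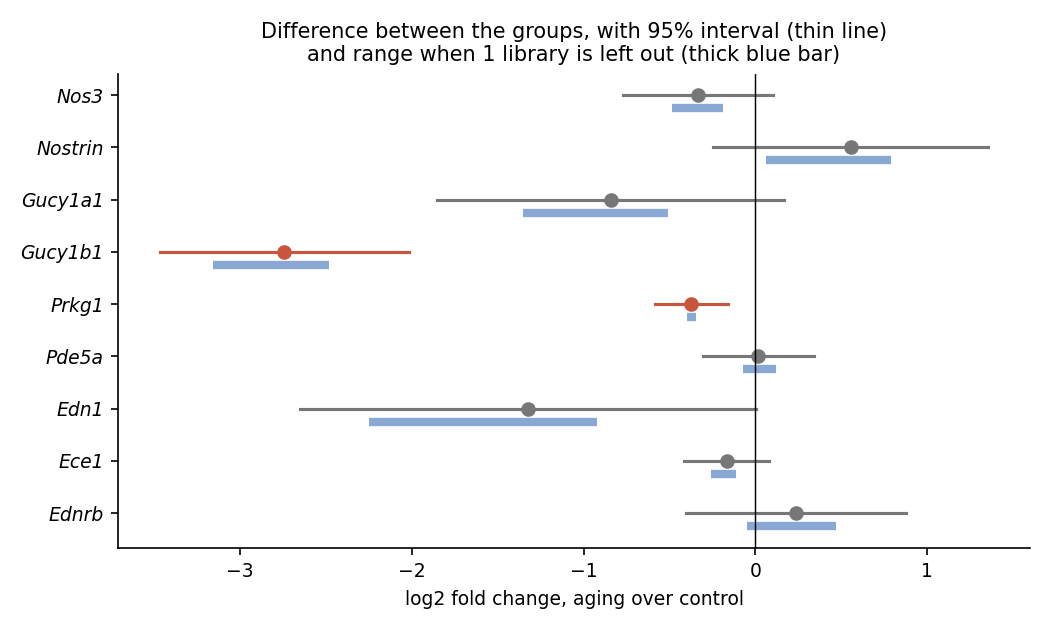
Log2 fold change of the 9 tested genes, aging over control (points, red where edgeR's adjusted p is under 0.05), with the 95% interval (thin lines) and the range when 1 library is left out (thick blue bars). The intervals of Gucy1b1 and Prkg1 lie below 0, and that of Edn1 ends at 0.00.

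The surrounding pathway was read from 6 lists of other genes. The table holds 120 of these genes and 87 had enough counts, of which 7 rose and 12 fell, against 7.22% higher and 5.59% lower over all tested genes. The calls fell from 19 to 12 and 7 without control replicate 1 or 2. The median log2 fold change over the 87 was -0.02.

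Regulators of the synthase moved in both directions. Of 29 tested genes 3 rose and 5 fell, with a median log2 fold change of 0.04. Klf2, a transcription factor induced by blood flow that is known to raise Nos3 and lower Edn1 in cultured endothelium, stood at 614, 542 and 516 CPM in the control and at 330, 229 and 234 CPM in the aging libraries, and fell by 1.08 ± 0.16 on the log2 scale (SE; edgeR adjusted p = 0.00911). Its relative Klf4, named after its values were seen, fell from 409 ± 9.04 to 195 ± 61.3 CPM (SD, n = 3 per group), a call that needed each control library and aging replicate 2 (edgeR adjusted p up to 0.0883 with one of these left out). Both separated without overlap, as did 18.8% of all tested genes in that direction. The values of Nos3 overlapped, while those of Edn1 were lower in the aging libraries without overlap and did not pass. A relation of either gene to Klf2 was not tested.

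The partners that hold the synthase in check or in shape also changed. Cav1, caveolin-1, which binds and inhibits it, stood at 93.8, 107 and 89.8 CPM in the control and at 58.7, 66.6 and 57.0 CPM in the aging libraries (log2 fold change -0.67 ± 0.10, SE). The call missed the threshold without control replicate 2 (edgeR adjusted p = 0.0523). The chaperone genes Hsp90aa1 and Hsp90ab1, whose proteins bind the active synthase, rose, the first from a mean of 174 CPM to 515 CPM and the second from 1042 to 1907 CPM (log2 fold changes 1.56 ± 0.18 and 0.87 ± 0.11, SE), and passed when any single library was left out.

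Of the list's genes of arginine use and supply, all named after their values were seen, Arg1, Arg2 and Ass1 passed, and Asl, Slc7a1 and Slc7a2 did not (log2 fold changes -0.22 ± 0.14, 0.28 ± 0.41 and 0.16 ± 0.19, SE). Arg2, the mitochondrial arginase that competes with the synthase for arginine, stood at 14.0, 10.2 and 6.17 CPM in the control and at 102, 56.3 and 45.8 CPM in the aging libraries, and rose by a log2 fold change of 2.74 ± 0.40 (SE), missing the threshold without control replicate 2 (edgeR adjusted p = 0.0592). Its order among the aging libraries, replicate 2 before 3 before 5, was that of the summed neutrophil markers (4489, 1928 and 1590 CPM). The part of neutrophils in it was not tested. Arg1 and Ass1, enzymes abundant in hepatocytes, fell by 1.74 ± 0.27 and by 0.85 ± 0.16 on the log2 scale (SE), and Ass1 missed the threshold without control replicate 2 (edgeR adjusted p = 0.0523). Of the 14 hepatocyte markers 5 fell and none rose, against 5.59% lower and 7.22% higher over all tested genes. Their sum was 824 to 970 CPM in the control and 769 to 912 CPM in the aging libraries. Most of it came from Alb, at a mean of 509 CPM and 520 CPM in turn, so the sum says little of the markers that fell. The part of hepatocytes in the falls of Arg1 and Ass1 was not tested. Gch1, which makes the cofactor of the synthase, did not pass (log2 fold change 0.64 ± 0.21, SE). Nos2, the inducible synthase, stayed between 0.881 and 1.73 CPM and Nos1, the neuronal one, had 0 to 6 counts.

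In the list of other genes around cGMP synthesis, 3 natriuretic peptide receptors were tested and 1 passed. Npr3, the receptor that clears natriuretic peptides, fell from 12.2, 12.9 and 12.6 CPM to 2.59, 4.13 and 2.79 CPM, a log2 fold change of -1.98 ± 0.20 (SE; edgeR adjusted p = 0.00449), and passed when any single library was left out. Npr1 and Npr2, the natriuretic peptide receptors that make cGMP, did not pass (log2 fold changes -0.18 ± 0.10 and -0.27 ± 0.11, SE). Npr1 was far more abundant than either cyclase subunit, at 661 to 861 CPM. The natriuretic peptide genes Nppa, Nppb and Nppc had 0 to 2 counts per library.

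Of 15 tested phosphodiesterases of other kinds 2 rose and none fell. Both are specific for cAMP. Pde4b stood at 67.6, 51.7 and 42.4 CPM in the control and at 255, 135 and 144 CPM in the aging libraries (log2 fold change 1.72 ± 0.29, SE), a call that needed control replicates 2 and 3. The log2 fold change of Pde4a was 0.63 ± 0.14 (SE), and its call needed control replicates 1 and 2 and aging replicates 2 and 3 (edgeR adjusted p up to 0.1 with one of these left out). Pde4b is also known from leukocytes, and neutrophil markers were higher in the same libraries. Their part was not tested. Pde2a, named after its values were seen, is activated by cGMP and was the most abundant, at 1301 to 1532 CPM in the control and 1180 to 1362 CPM in the aging libraries (log2 fold change -0.20 ± 0.10, SE, not passed).

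Of 16 tested targets of the cGMP kinase and contraction genes, Vasp rose and Rgs5 fell. Vasp, an actin regulator whose phosphorylation is the usual readout of the kinase, stood at 97.5, 95.4 and 96.5 CPM in the control and at 151, 120 and 145 CPM in the aging libraries (log2 fold change 0.53 ± 0.10, SE), a call that needed each control library (edgeR adjusted p up to 0.0878 with one left out). Rgs5, which limits G protein signalling in pericytes, is also one of the stellate markers above. The smooth muscle genes Acta2 and Myh11 stood at 1.32 to 7.09 CPM and 0.633 to 4.78 CPM over the 6 libraries.

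Of 5 tested genes that process or clear endothelin, Cma1 and Mme fell and 3 did not pass. Mme, neprilysin, which degrades endothelin and natriuretic peptides, stood at 7.51, 3.94 and 5.29 CPM in the control and at 2.42, 3.13 and 2.33 CPM in the aging libraries (log2 fold change -1.08 ± 0.29, SE). Cma1, the mast cell chymase, had a log2 fold change of -1.61 ± 0.37 (SE). Both calls were lost when any library was left out (edgeR adjusted p up to 0.126 and 0.0955). Edn2 and Edn3, the other endothelins, had 0 to 3 and 0 counts per library, so Edn1 was the only ligand measured above a few counts.

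Of 19 tested genes of other vasoactive systems 1 rose and 3 fell. Hmox1, heme oxygenase, which makes carbon monoxide, another activator of guanylate cyclase, rose from 108 ± 14.8 to 208 ± 18.1 CPM (SD, n = 3 per group), and Agtr1a, the angiotensin receptor, fell from 3.28, 3.26 and 3.02 CPM to 1.09, 1.3 and 1.10 CPM. Cbs, which makes hydrogen sulfide, and the peptide receptor gene Vipr1 fell by 0.97 ± 0.19 and by 0.75 ± 0.17 on the log2 scale (SE). The call of Agtr1a needed control replicate 2 (edgeR adjusted p = 0.0596 otherwise). That of Cbs needed control replicates 1 and 2 and aging replicate 3, and that of Vipr1 each control library and aging replicate 3 (edgeR adjusted p up to 0.0812 and 0.118 with one of these left out).

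**Figure D5:**
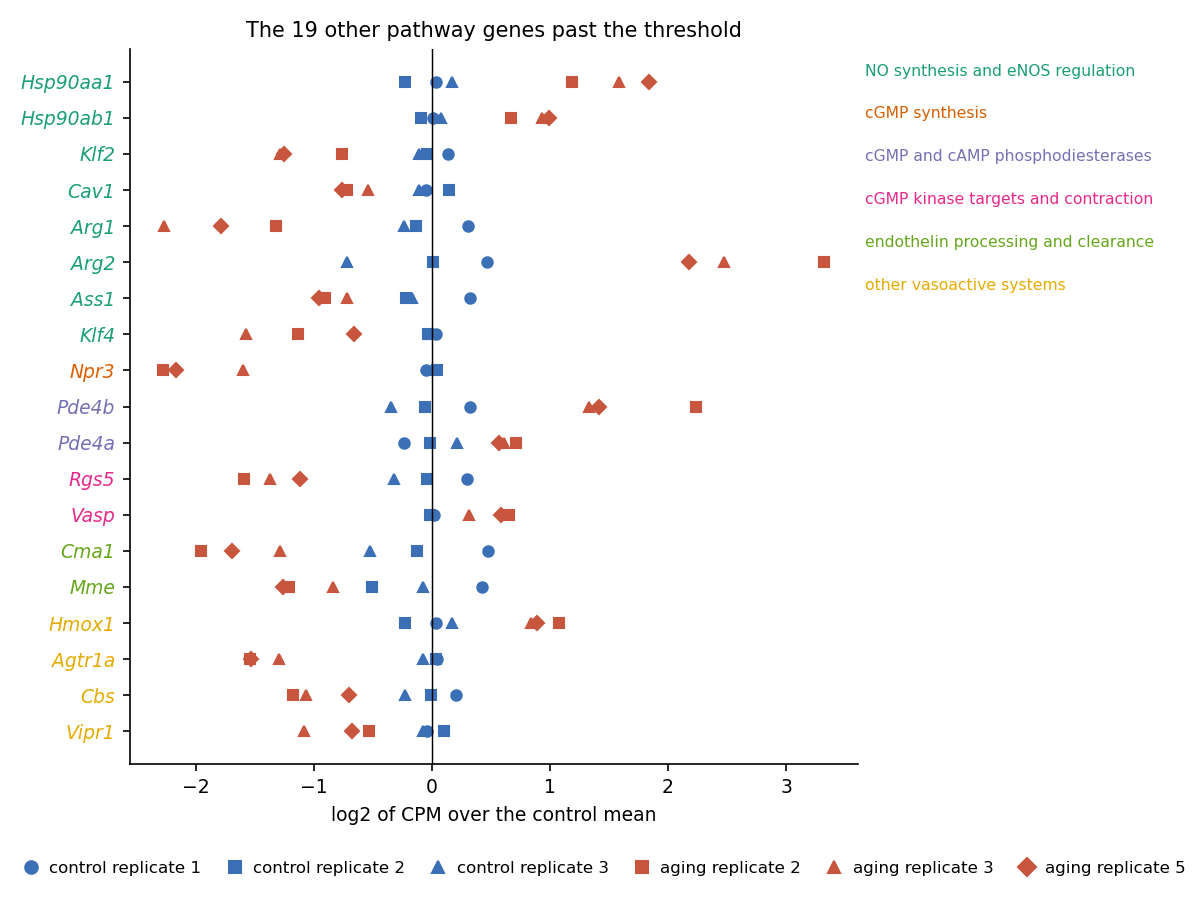
Log2 of the CPM in each library over the control mean, for the 19 other pathway genes past the threshold (point colours give the group, name colours the list). In each of the 19 genes the 3 aging libraries lie on one side of the 3 control libraries, with Arg2 the farthest up and Npr3 among the farthest down. The genes were chosen by the test between these same libraries, so their separation follows largely from that choice.

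The patterns most like that of Gucy1b1 were found by the root mean square difference of mean-centred log2(CPM + 0.5) over the 6 libraries, among 12511 genes. Nearest to Gucy1b1 were Lrch2 (0.27), Cyp1a1 (0.29) and Npr3 (0.30), with log2 fold changes of -3.33 ± 0.45, -2.20 ± 0.22 and -1.98 ± 0.20 in turn (SE). This is a description over 6 libraries of 2 groups.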

How the data were processed

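Poly(A)-selected RNA of LSECs was sequenced in 6 libraries, 3 per group by their titles. Per the labels' protocols, RNA was extracted with Trizol and libraries were made with a New England Biolabs kit. The submitters' processing notes name RSEM, StringTie 1.3.1, HISAT2, Bowtie2 and fastp 0.18.0. For what each tool was used, and for the build, annotation and strand setting, the sources used here give nothing, so reads shared with antisense or overlapping genes cannot be told apart. Per the file headers, the deposited table holds a count and an FPKM column per library. It also holds the authors' group means, taken as a score since no unit is stated, and the authors' log2 fold change, p-value and FDR. The means are those of 5 libraries per group by their decimals, not of the 3 used here, and these values are given once. The ratios are of deposited FPKM values, which were rounded by the authors. Library totals and scaling factors (0.963 to 1.05) are alike, so depth is similar throughout, and genes of a few counts are imprecise.

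The main test was that of edgeR 4.0.16 (R 4.3.3) on the counts as deposited: filterByExpr (minimum count 10, minimum total 15), TMM scaling, and a robust quasi-likelihood fit with group as its only term, adjusted by Benjamini and Hochberg over 13096 genes at a threshold of 0.05. The SE is the absolute log2 fold change over the square root of F. CPM uses the same scaling, and no count or FPKM column was left out. The fit was tested on simulated data. Alternatives were DESeq2 1.42.0, limma 3.58.1 on FPKM, other scalings and filters, a replicate block and leaving out each library. No library was a copy of another of its group (chi-square statistics of their counts 8.07 to 51.9 times the degrees of freedom). The members, lists and tests were chosen with earlier results of these data known. Named genes are the 10 members, up to 4 genes per list by smallest adjusted p among those past the threshold or, where none passed, by smallest p, and the 3 most alike genes per member past the threshold. The genes most like Prkg1 are not reported here. Other names were chosen after their values were seen.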

Additional observations from a re-analysis of the deposited data

How the results depend on the processing

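Gucy1b1 kept its call and direction under all 14 alternatives, with log2 fold changes from -3.16 to -1.36, the smallest with limma on log2(FPKM + 1), where low values are compressed by the pseudocount. Of the members 2 were called, and 1 without a low-count filter and with limma on log2(FPKM + 0.1) or log2(FPKM + 1), where Prkg1 was lost. Leaving out 1 library gave 1 to 2 members, 7 to 21 other pathway genes and 268 to 2121 genes in all. With 1 library left out, the difference in log2 ratio ranged from -2.16 to -1.73 for Gucy1b1 to Gucy1a1, from 0.70 to 1.59 for Ednrb to Ednra and from -1.96 to -1.03 for Edn1 to Ece1. The sign of Pde5a turned with upper-quartile scaling (-0.027), limma (-0.0051 and -0.0042) and the replicate block (-0.17), and its leave-one-out range was -0.075 to 0.12. That of Ednrb was -0.046 to 0.47. The causes were not tested. The titles share numbers 2 and 3 between the groups, but same-numbered libraries did not deviate together (correlation -0.06 and -0.04). With the replicate block, which rests on those 4 libraries, 1698 genes were called, and Nos3 (-0.61) and Gucy1b1 among the members, while Prkg1 was lost (edgeR adjusted p = 0.144). Nostrin (-0.060) and Pcsk5 (0.18) turned sign without passing.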

Other observations

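Counts and FPKM of one gene in one library together give the transcript length that the authors' quantification used, here the count over the FPKM and the library's total count, in kb. It was taken for 9630 genes with an FPKM of at least 2 in each library, and each library was scaled so that its median deviation from the genes' own medians was even. For Nos3, Nostrin and Edn1 this length was constant, at 4.13, 1.81 and 2.14 kb, with a coefficient of variation of 0.0525%, 0.00528% and 0.0306% over the 6 libraries, against a median of 1.29% over the genes. For Ece1 it fell into separate values, 3.67 kb in control replicate 2 and 3.58 kb in aging replicate 3 against 4.40, 4.42, 4.46 and 4.48 kb in the other 4 libraries, a coefficient of variation of 10.2%, which 95.2% of the genes stayed under. Ece1 therefore stood at 191 FPKM in aging replicate 3 and 153 FPKM in control replicate 1, where its CPM were 684 and 642. For Prkg1 the length ranged from 5.85 to 6.98 kb, with 90.9% of genes varying less. Means were alike in both groups, 4.16 ± 0.429 and 4.17 ± 0.513 kb for Ece1 and 6.40 ± 0.564 and 6.53 ± 0.524 kb for Prkg1 (SD, n = 3 per group, control first). Which transcript forms lie behind these lengths was not tested.

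The protein-coding neighbours of the cyclase genes on chromosome 3 were Tdo2, a tryptophan-degrading liver enzyme listed here among the hepatocyte markers, which fell by 0.96 ± 0.20 on the log2 scale (SE; edgeR adjusted p = 0.0229, and up to 0.0945 with control replicate 1 or 2 or aging replicate 3 left out), Asic5, with too few counts to be tested, and on the other side Map9, at -1.02 ± 0.36 (SE; edgeR adjusted p = 0.0993).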
